A study of Mus musculus with 2 samples.

Results

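The cells described here were 285 Apoe-high, MHC class II-expressing cells with macrophage transcripts, among 4385 CD45-positive cells sorted from mouse retinas. They were chosen by their own transcript counts. A member had at least 100 UMIs (unique molecular identifiers, which count captured transcripts) of H2-Aa, H2-Ab1, H2-Eb1 and Cd74 together, and at least 100 of Apoe, per 10000 UMIs of the cell. It had under 15 per 10000 of the microglial genes P2ry12, Tmem119, Gpr34, Olfml3, Sparc and Sall1, under 3 UMIs of the B cell genes Cd79a, Cd79b and Ms4a1, under 2 UMIs of the T cell genes Cd3d, Cd3e and Cd3g, and not both Ccr7 and Fscn1. The Igfbpl1 library held 237 members among 3330 cells, and the PBS library 48 among 1055 cells.

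Both libraries came from B6 mice with glaucoma induced by microbeads, which are injected into the eye to block its outflow and raise its pressure. One group was treated with Igfbpl1, a secreted protein related to the insulin-like growth factor binding proteins, and the other with PBS, and all mice carried the glaucoma model. Each group was 1 library made from retinas of 10 pooled mice aged 8 to 10 months. After perfusion and a 1-hour enzymatic digestion, CD45-stained cells were sorted and sequenced with a droplet 3' kit.

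With 1 library per group there was no replicate check, and values compare these libraries, not the treatments. Every interval is at 95% and covers counting error only. Intervals are exact for levels (Poisson), ratios (conditional binomial) and shares (Clopper-Pearson). That of the difference between shares is approximate, by Newcombe's method from Wilson limits. Levels are CPM, which set the UMIs of a gene relative to all UMIs of its class. Members held 931592 UMIs in the Igfbpl1 library and 204998 in the PBS library, with medians of 3551 UMIs (1037 to 19343) and 3696.5 UMIs (1765 to 9492) per cell. Median genes per member were 1259 and 1534.5, and ribosomal protein genes took 25.6% and 14.6% of the members' UMIs. The libraries shared 0 cell barcodes. Scrublet called 3 of 237 Igfbpl1 members and 0 of 48 PBS members doublets, and these cells were kept.

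Macrophages of the retina outside the microglia include border macrophages, which live along vessels, the ciliary body and the optic nerve head, and cells derived from blood monocytes that enter injured tissue. MHC class II molecules carry peptides from swallowed proteins to CD4 T cells. H2-Aa and H2-Ab1 encode the alpha and beta chains of one such molecule, H2-Eb1 the beta chain of another, and Cd74 the invariant chain that guards the groove until peptide is loaded. Apoe encodes apolipoprotein E, a lipid carrier that macrophages secrete.

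Class II genes are known to share a promoter module that ends in a Y box, the CCAAT sequence bound by the factor NF-Y. The 150 bases before the starts of 2 rule genes are shown because class II expression defined the members. They come from RefSeq (GRCm38.p6) and read 5′ to 3′ on the gene's own strand, with capitals for CCAAT or its reverse complement ATTGG.
H2-Aa, chr17:34287824-34287973, minus strand: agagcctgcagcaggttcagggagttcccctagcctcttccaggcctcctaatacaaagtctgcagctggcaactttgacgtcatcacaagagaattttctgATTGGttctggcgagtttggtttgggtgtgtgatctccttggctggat
H2-Eb1, chr17:34305717-34305866, plus strand: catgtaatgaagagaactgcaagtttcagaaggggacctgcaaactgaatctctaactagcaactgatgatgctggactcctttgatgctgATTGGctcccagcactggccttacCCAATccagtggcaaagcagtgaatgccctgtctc
ATTGG lay 48 to 44 bases before the start of H2-Aa and 59 to 55 bases before that of H2-Eb1, which also held CCAAT at 35 to 31 bases. CCAAT on either strand was present in 24.5% of all 32851 promoter windows of the same length, so a match is a description of the letters and not a site. Both genes lie on chromosome 17 in mm10, H2-Aa at 34282744 to 34287823 and H2-Eb1 at 34305867 to 34316674. H2-Aa stood at 5995 CPM in Igfbpl1 members and 6844 CPM in PBS members, and H2-Eb1 at 6882 and 8068 CPM.

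The values that chose the members are given as a description. Apoe per 10000 UMIs ran from 100.4 through a median of 346 to 1609 in Igfbpl1 members, and from 112 through a median of 782 to 2011 in PBS members. The class II sum had medians of 332 in Igfbpl1 members (100.4 to 870) and 439 in PBS members (113 to 958). The microglial sum had medians of 0 and 5.54, with a highest value of 14.6 in Igfbpl1 members and 14.3 in PBS members. Both libraries thus held members close to the limits. In the Igfbpl1 library the member nearest the Apoe limit had 100.4 and the nearest cell outside it 99.05, while in the PBS library these were 112 and 57.1. For class II they were 100.4 and 98.0 in the Igfbpl1 library and 113 and 86.9 in the PBS library, and for the microglial genes 14.6 and 15.5, and 14.3 and 18.2. Apoe (mm10 chromosome 7, 19696109 to 19699188, minus strand) took 38446 CPM in Igfbpl1 members (38049 to 38846) and 79786 CPM in PBS members (78568 to 81018). Apoe UMIs were also seen in the B cell class, at 16543 CPM in the Igfbpl1 library and 332 CPM in the PBS library. The part of free RNA in the members' Apoe was not tested.

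**Figure D1:**
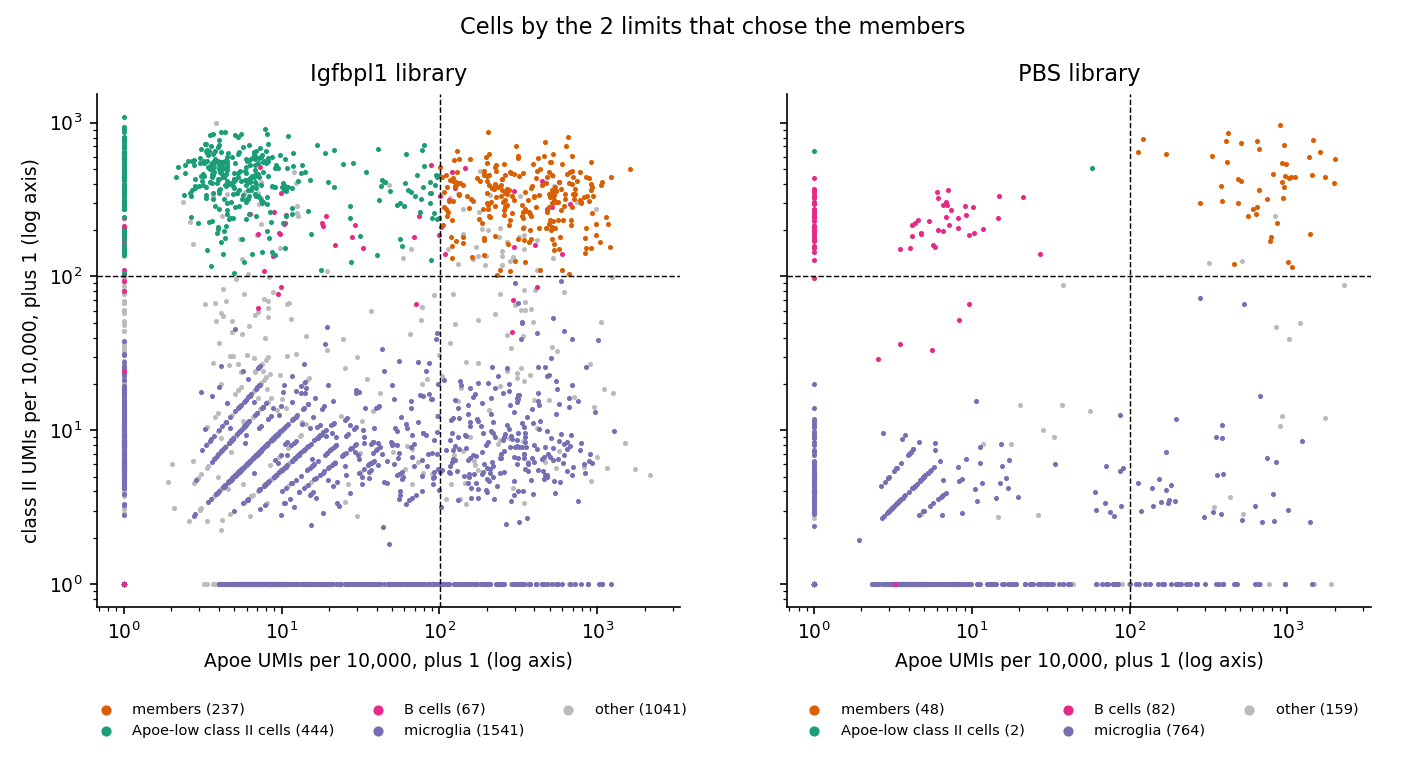
Each point is a cell, placed by its Apoe UMIs (x) and its class II UMIs (y), both per 10000 UMIs plus 1 on log axes. Dashed lines mark the limits of 100. The 237 Igfbpl1 members (orange, left) adjoin 444 Apoe-low class II cells (green), while the 48 PBS members (right) stand beside 2.

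Members made up 7.12% of the Igfbpl1 library (6.27 to 8.04%) and 4.55% of the PBS library (3.37 to 5.99%), a difference of 2.57 percentage points (0.916 to 4.0). Microglia were 46.3% of the Igfbpl1 library and 72.4% of the PBS library. Among cells outside the microglia class, members made up 13.2% of the Igfbpl1 library (11.7 to 14.9%) and 16.5% of the PBS library (12.4 to 21.3%). Among class II cells of both Apoe levels they were 34.8% in the Igfbpl1 library (237 of 681 cells, 31.2 to 38.5%) and 96% in the PBS library (48 of 50 cells, 86.3 to 99.5%). The Igfbpl1 library held 444 Apoe-low class II cells and the PBS library 2, as the plot of the rule's limits shows. A CD45 sort precedes these shares, and numbers of cells per retina were not measured.

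The label's markers outside the rule are given as a description. They were chosen with earlier results of these data known, so their levels are no independent check of the label. Ms4a7, a membrane gene of macrophages other than microglia (chromosome 19, 11321039 to 11336146, minus strand), stood at 564 CPM in Igfbpl1 members (516 to 614) and 888 CPM in PBS members (764 to 1027). It had UMIs in 167 of 237 Igfbpl1 members and 45 of 48 PBS members, while microglia had 7.80 CPM in the Igfbpl1 library and 1.78 CPM in the PBS library. Lyz2, the macrophage lysozyme gene, was at 7382 CPM in Igfbpl1 members and 7644 CPM in PBS members, against 594 and 446 CPM in microglia. Both genes separated members from microglia in each library. Apoc2, an apolipoprotein gene close to Apoe on chromosome 7 (19671579 to 19677941, minus strand), was at 861 CPM in Igfbpl1 members and 48.8 CPM in PBS members, from 10 UMIs in 9 of 48 cells, against 19.8 and 1.78 CPM in microglia. It was thus above microglia in each library (43.5-fold, 34.1 to 56.3, and 27.5-fold, 8.55 to 102), at a low level in PBS members.

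Thinning each cell to 1000 UMIs put the shares of members with a UMI on one depth. Ms4a7 was then seen in 38.0% of Igfbpl1 members and 35.4% of PBS members, against 1.90% and 0% of T cells, a class that should lack it. Lyz2 was seen in 95.8% of Igfbpl1 members and 91.7% of PBS members, against 11.4% and 0% of T cells. Apoc2 was seen in 45.1% of Igfbpl1 members and 6.25% of PBS members, against 2.86% and 0% of T cells. The T cells numbered 315 and 30, with median depths of 2464 and 3794.5 UMIs, and the exact upper bound for 0 of 30 cells is 11.6%. The choice of T cells was made after the values were seen, and B cells gave a higher background for these genes in the Igfbpl1 library. Thinned B cells had Ms4a7 in 8.96% of Igfbpl1 cells and 0% of PBS cells, Lyz2 in 34.3% and 2.44%, and Apoc2 in 14.9% and 1.22%. Markers of several other cell types were scarce in the members: summed natural killer, T cell, neutrophil, rod, bipolar, endothelial, mast cell and red cell or pigment markers each stood at 94.5 CPM or less in either library. The B cell list stood at 132 CPM in Igfbpl1 members and 502 CPM in PBS members, where it was Bank1 and Ighm for the most part. At least 3 of its UMIs were seen in 3.80% of Igfbpl1 members and 31.25% of PBS members. Other lists were not scarce. Microglia markers outside the rule summed to 6706 CPM in Igfbpl1 members and 11844 CPM in PBS members, against 26730 and 33113 CPM in microglia. All 237 and 48 members had 3 or more UMIs of that list. Dendritic cell markers summed to 6241 CPM in Igfbpl1 members and 9059 CPM in PBS members, with 1 and 5 of 20 at 0 or not listed. Most of that sum was Cst3, the cystatin C gene, at 4602 CPM in Igfbpl1 members and 6424 CPM in PBS members, against 29142 and 35282 CPM in microglia, while the dendritic cell receptor gene Flt3 stood at 21.5 and 4.88 CPM. Plasmacytoid dendritic cell markers summed to 1549 and 1756 CPM, of which Bst2, an interferon-induced gene, was 948 and 951 CPM, and Spib had 0 UMIs. Muller glia and astrocyte markers summed to 449 CPM in Igfbpl1 members and 229 CPM in PBS members, and 3 or more of their UMIs were seen in 27.0% and 10.4% of members. Vim, the vimentin gene of many cell types, was 346 and 43.9 CPM of that sum and Glul 93.4 and 141 CPM, while Rlbp1, Aqp4 and Sox9 had 0 UMIs. The part of these cell types in the members' results was not tested.

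**Figure D2:**
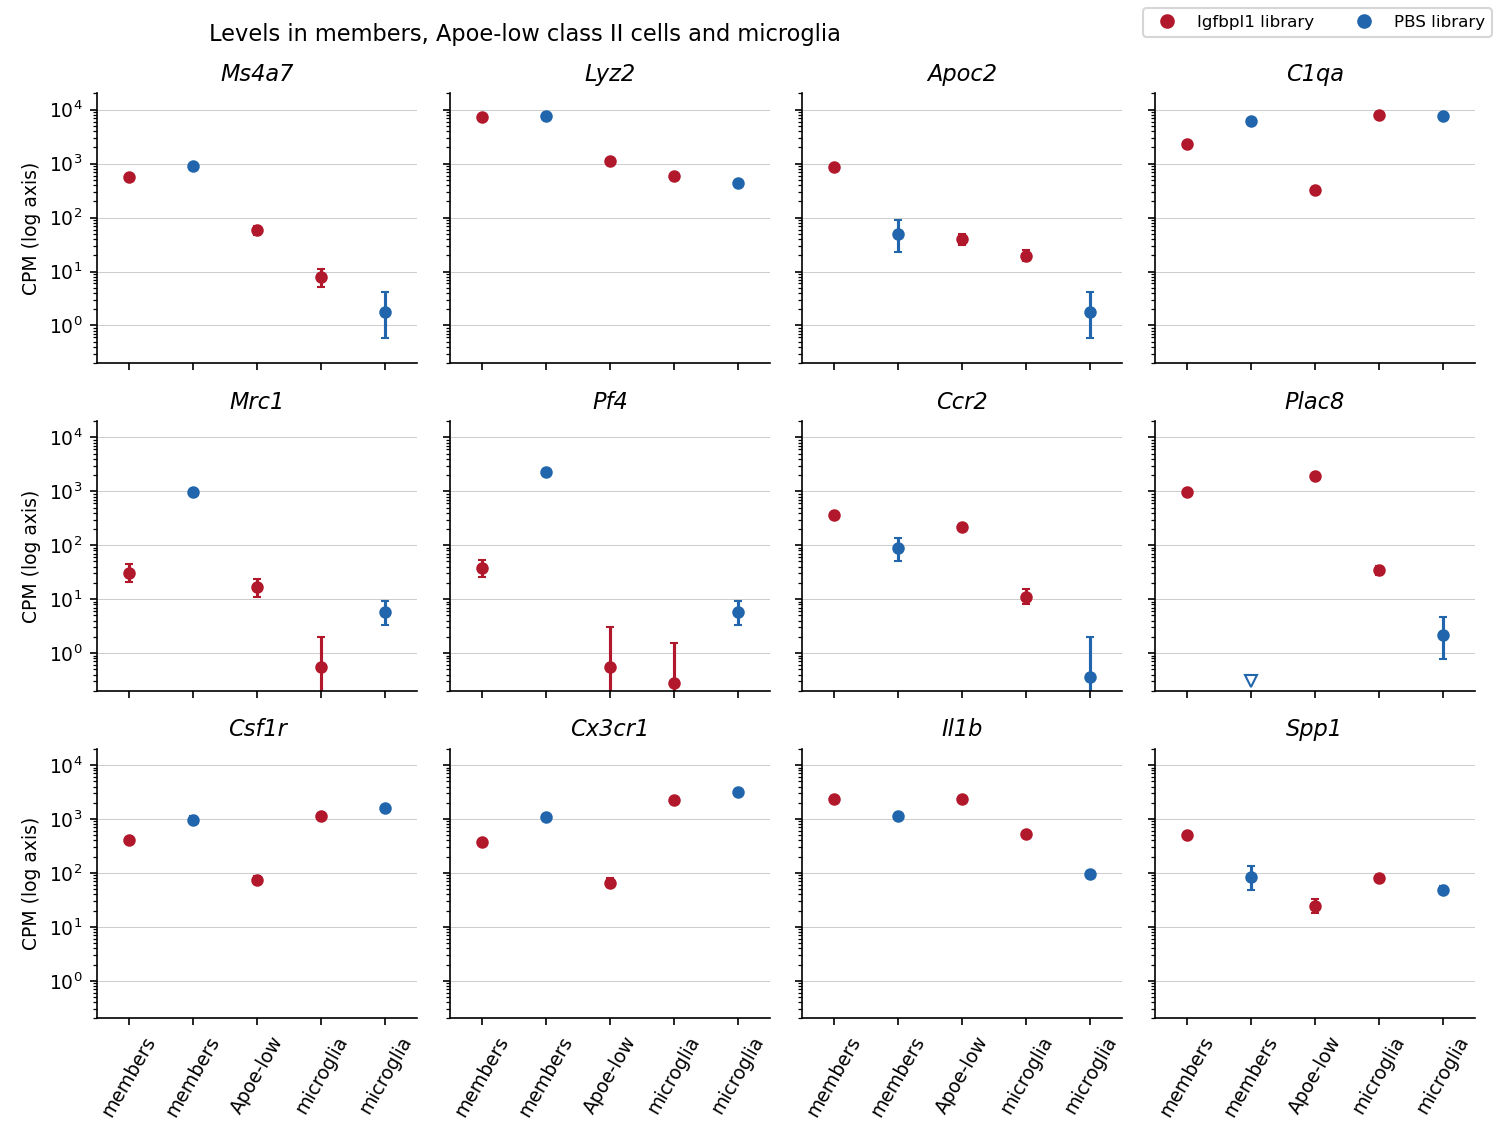
Levels in CPM (log axis) of 12 genes in members, Apoe-low class II cells and microglia, red for the Igfbpl1 library and blue for the PBS library. Bars are exact 95% Poisson intervals, and the open triangle marks 0 UMIs. Mrc1 and Pf4 are near 1000 CPM or above in PBS members and under 50 CPM in Igfbpl1 members, while Plac8 is at 979 CPM in Igfbpl1 members and 0 in PBS members.

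The first comparison sets the members of the Igfbpl1 library beside those of the PBS library. Monocyte genes were higher and border macrophage genes lower in Igfbpl1 members. Among 2800 genes measured (a mean of at least 50 CPM and at least 20 UMIs), 251 (8.96%) were at least 2-fold higher and 450 (16.1%) at least 2-fold lower, on a log2 scale with 10 CPM added and with a counting interval that left out 1. The median log2 ratio of all genes was -0.20. Scaling by the median ratio, which moves that median to 0.01, gave 359 higher and 310 lower, so 53.7% of calls were higher in place of 35.8%. Without ribosomal protein and mitochondrial genes there were 372 higher and 408 lower.

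Of 20 monocyte markers 10 were measured, 8 of them higher and 0 lower in Igfbpl1 members, with a median log2 ratio of 2.03. Plac8, a gene of monocytes and other bone marrow-derived cells (chromosome 5, 100553725 to 100572245, minus strand), had 912 UMIs in Igfbpl1 members (979 CPM) and 0 in PBS members, at least 66.9-fold higher against a floor of 3 UMIs over the class. Ly6c2, the Ly6C antigen of inflammatory monocytes, stood at 340 CPM in Igfbpl1 members and at 14.6 CPM, from 3 UMIs, in PBS members, a ratio of 23.3 (7.88 to 113). Ccr2, the receptor by which monocytes follow Ccl2 out of the blood, was at 366 CPM in Igfbpl1 members and 87.8 CPM in PBS members (4.17-fold, 2.60 to 7.12). S100a6, a calcium-binding protein gene, was at 389 CPM in Igfbpl1 members and had 1 UMI in PBS members (79.7-fold, 14.2 to 3155). The 20 monocyte markers summed to 4136 CPM in Igfbpl1 members and 937 CPM in PBS members, with 1 and 10 of them at 0 or not listed. In microglia the same sums were 421 CPM in the Igfbpl1 library and 138 CPM in the PBS library. Thinned, Ccr2 was seen in 28.7% of Igfbpl1 members and 6.25% of PBS members, against 12.1% and 0% of T cells and 7.46% and 0% of B cells. Plac8 was seen in 41.4% of Igfbpl1 members and 0 of 48 PBS members (up to 7.40%), against 14.9% and 3.33% of T cells and 37.3% and 15.9% of B cells. Whether T and B cells express these 2 genes themselves was not tested, so their shares are no background here.

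Of 16 border macrophage markers 9 were measured, 7 of them lower and 0 higher in Igfbpl1 members, with a median log2 ratio of -2.48. Pf4, the platelet factor 4 chemokine gene that border macrophages also express, stood at 37.6 CPM in Igfbpl1 members and 2283 CPM in PBS members (0.0165-fold, 0.0113 to 0.0232). Mrc1, the mannose receptor CD206 (chromosome 2, 14229392 to 14332057, plus strand), was at 31.1 CPM in Igfbpl1 members and 966 CPM in PBS members (0.0322-fold, 0.0210 to 0.0477). Lyve1, the hyaluronan receptor of perivascular macrophages, had 0 UMIs in Igfbpl1 members and 34 in PBS members, at least 51.5-fold lower. F13a1, the clotting factor XIII A subunit, was at 59.0 CPM in Igfbpl1 members and 346 CPM in PBS members, and the transcription factor gene Maf at 148 and 883 CPM. Cd163, the haemoglobin scavenger receptor, was listed for the PBS library alone, at 166 CPM (34 UMIs in 16 of 48 members). The 16 markers summed to 728 CPM in Igfbpl1 members and 5551 CPM in PBS members, with 5 and 3 of them at 0 or not listed. Thinned, Mrc1 was seen in 2.11% of Igfbpl1 members and 41.7% of PBS members, and in 0% of T cells of both libraries.

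Member by member, 208 of 237 Igfbpl1 members (87.8%, 82.9 to 91.6%) had more monocyte than border UMIs, against 11 of 48 PBS members (22.9%, 12.03 to 37.3%). More border than monocyte UMIs were found in 15 Igfbpl1 members (6.33%, 3.59 to 10.2%) and 33 PBS members (68.8%, 53.7 to 81.3%). After thinning these numbers were 186 and 10 cells for monocyte genes, and 22 and 34 for border genes. The border sum per 10000 UMIs had a median of 5.51 and a highest value of 82.0 in Igfbpl1 members, and a median of 24.3 and a highest value of 260 in PBS members. The monocyte sum had a median of 32.8 and a highest value of 166 in Igfbpl1 members, and a median of 7.70 and a highest value of 26.0 in PBS members. Members within 2 UMIs of an equal count numbered 45 of 237 in the Igfbpl1 library and 16 of 48 in the PBS library. Of the PBS members, 29 had a border sum of 36.0 or less and 19 of 58.4 or more, with none between.

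**Figure D3:**
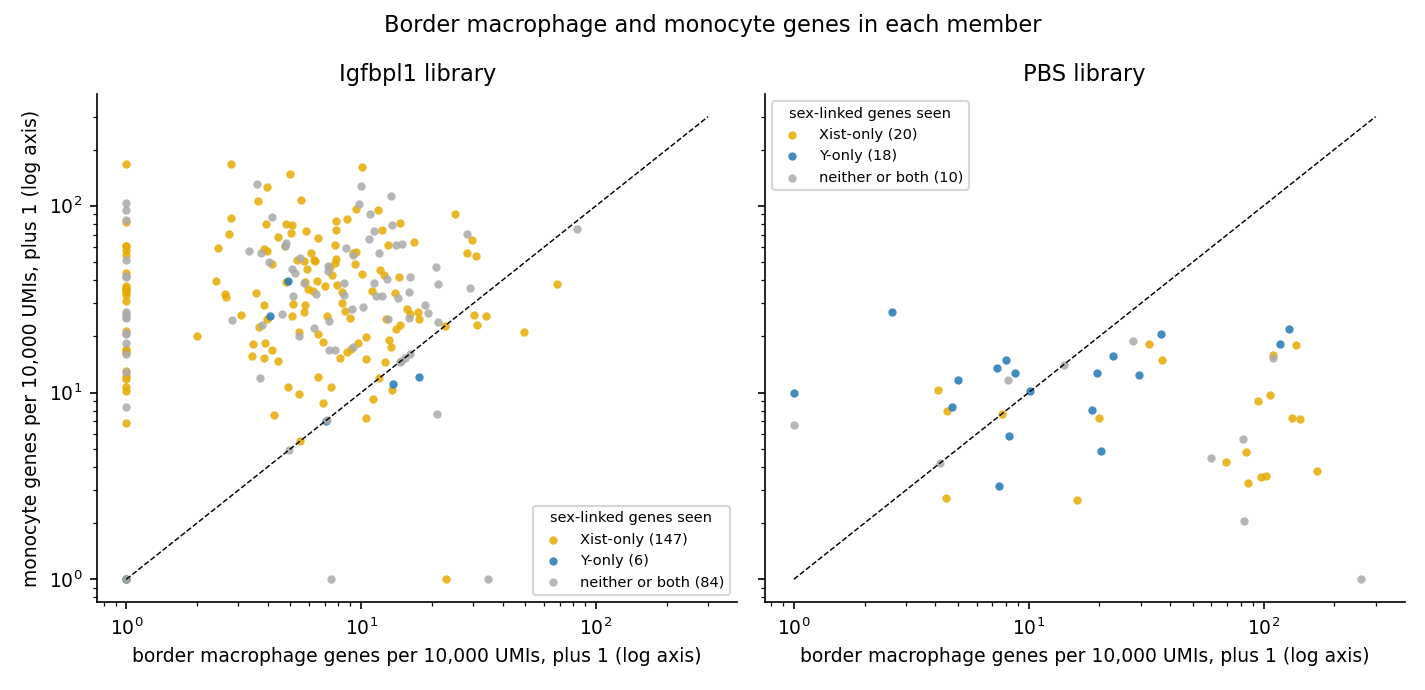
Each point is a member, placed by its summed border macrophage genes (x) and monocyte genes (y) per 10000 UMIs plus 1, on log axes, with the Igfbpl1 library on the left. The dashed line marks equality, and colour shows the sex-linked transcripts seen. Most Igfbpl1 members lie above the line and most PBS members below it.

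Sex-linked transcripts divided the members unequally as well. Xist-only cells had UMIs of Xist, the RNA of the inactive X chromosome, and none of Uty, Kdm5d, Eif2s3y and Ddx3y from the Y chromosome, and Y-only cells had Y-linked UMIs without Xist. Igfbpl1 members included 147 Xist-only and 6 Y-only cells, so 3.92% of those assigned were Y-only (1.45 to 8.34%). PBS members included 20 Xist-only and 18 Y-only cells, or 47.4% Y-only (31.0 to 64.2%). Microglia of the same libraries were 44.5% and 66.0% Y-only. Which sexes were pooled is not stated in the labels used here, and sex, pool and treatment cannot be told apart in these members. Among Y-only members Apoc1, Ccl5, Il1rn, Ly6c2 and Ly6i had 0 UMIs in the 6 Igfbpl1 cells and 1 to 8 UMIs in the 18 PBS cells, Apoc2 had 1 and 6 UMIs, and Ifi27l2a had a ratio of 0.791 whose interval held 1 (0.434 to 1.36).

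Border sums differed between the sex-linked sets of PBS members. Those of Xist-only cells had a median of 83.8 per 10000 UMIs (3.099 to 168), against 8.45 in the Y-only PBS members (0 to 128) and 42.6 in the 10 PBS members with neither or both (0 to 260). A border sum of at least 50 was reached by 12 of 20 Xist-only, 2 of 18 Y-only and 5 of 10 other PBS members. In the Igfbpl1 library it was reached by 1 of 147 Xist-only, 0 of 6 Y-only and 1 of 84 other members. Among Y-only members the monocyte sum had a median of 10.6 per 10000 UMIs in the Igfbpl1 library and 11.5 in the PBS library, and the border sum 4.96 and 8.45, so the higher monocyte sum of Igfbpl1 members was not seen in that set of 6 cells. Among Xist-only members the monocyte sum had medians of 33.5 and 6.27. There, Mrc1 stood at 20.8 CPM in Igfbpl1 cells and 1199 CPM in PBS cells (0.0173-fold, 0.00892 to 0.0310). Ccr2 was at 340 CPM in Xist-only Igfbpl1 members and had 0 UMIs in Xist-only PBS members, at least 9.56-fold higher. Monocyte markers in Xist-only members were 10 of 11 higher (median 3.47), and border markers 6 of 8 lower (median -2.72). Of all 2759 genes measured in Xist-only members, 247 were higher and 400 lower (median -0.13). Among Y-only members Ccr2 was at 331 CPM in the Igfbpl1 library (6 UMIs) and 176 CPM in the PBS library, a ratio of 1.89 whose interval held 1 (0.594 to 5.23).

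Lipid genes outside the rule differed in both directions. Of 15 measured, 7 were higher and 2 lower in Igfbpl1 members (median 0.31). Apoc2 was 17.6-fold higher (9.55 to 36.9), with UMIs in 74.7% of Igfbpl1 members. Apoc1, the next apolipoprotein gene of the cluster, was at 119 CPM in Igfbpl1 members and had 3 UMIs in PBS members (8.14-fold, 2.71 to 40.1). Microglia had Apoc1 at 101 CPM in the Igfbpl1 library and 8.53 CPM in the PBS library (11.9-fold, 7.85 to 18.8). Apoe helped choose the members, so its level in Igfbpl1 members, 0.482 times that in PBS members, is a description bounded by the Apoe limit. That limit alone left out 444 cells of the Igfbpl1 library and 2 of the PBS library. In microglia Apoe stood at 8953 CPM in the Igfbpl1 library and 4994 CPM in the PBS library. The higher genes also included Fabp5, a fatty acid-binding protein gene, at 595 CPM in Igfbpl1 members and 29.3 CPM in PBS members (20.3-fold, 9.28 to 55.6). In microglia Fabp5 stood at 90.3 and 18.8 CPM (4.80-fold, 3.58 to 6.54). Plin2, which coats lipid droplets, was at 306 CPM in Igfbpl1 members and 82.9 CPM in PBS members. Cd36, the fatty acid and oxidised lipoprotein receptor, was lower, at 18.2 and 161 CPM, as was the scavenger receptor gene Msr1, at 47.2 and 137 CPM.

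Microglia-associated genes that the rule did not use were lower in Igfbpl1 members, 9 of 14 measured, with 0 higher (median -1.40). Cx3cr1, the fractalkine receptor, was at 370 CPM in Igfbpl1 members and 1098 CPM in PBS members (0.337-fold, 0.284 to 0.401). Csf1r, the survival receptor of macrophages, was at 406 CPM in Igfbpl1 members and 976 CPM in PBS members. In microglia Cx3cr1 stood higher than in members in both libraries, as the plot of levels by class shows. Of the rule's own genes, Gpr34 stood at 25.8 CPM in Igfbpl1 members and 249 CPM in PBS members, and P2ry12 at 26.8 and 151 CPM. These values lie beside the microglia-associated results, and the part of microglial RNA in them was not tested.

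Complement genes included 5 lower and 2 higher of 11 measured (median -0.90). The subunits of C1q, which tags debris and synapses, were C1qa at 2326 CPM in Igfbpl1 members and 6293 CPM in PBS members (0.370-fold), C1qb at 2894 and 6083 CPM, and C1qc at 1363 and 3746 CPM. C1qa was seen in 71.3% of thinned Igfbpl1 members and 97.9% of PBS members, against 17.1% and 10% of T cells and 40.3% and 12.2% of B cells. Of the higher genes, Cfb, factor B of the alternative pathway, was at 100.9 CPM in Igfbpl1 members and had 2 UMIs in PBS members (10.3-fold, 2.78 to 86.7).

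Antigen presentation outside the rule split by class. Of 14 MHC class I genes measured, 7 were higher and 0 lower (median 0.97). H2-K1, a classical heavy chain, was at 1727 CPM in Igfbpl1 members and 844 CPM in PBS members (2.05-fold, 1.75 to 2.41), and the immunoproteasome gene Psmb8 at 585 and 273 CPM. H2-Q7, a non-classical gene with near-identical relatives, was at 325 and 34.1 CPM. Of 8 class II genes outside the rule, 2 were higher and 1 lower (median 0.09). Ciita, the master activator of class II genes, was at 78.4 CPM in Igfbpl1 members and 29.3 CPM in PBS members (2.68-fold, 1.17 to 7.53), and the thiol reductase gene Ifi30 at 1097 and 507 CPM. Cd83, an activation marker, was lower at 342 and 824 CPM, and H2-DMa, which loads peptide, had a ratio of 1.20 whose interval held 1 (0.965 to 1.503).

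Type I interferon response genes were 8 higher and 0 lower of 16 measured (median 0.84). Ifitm3, which blocks viral entry, was at 3337 CPM in Igfbpl1 members and 1068 CPM in PBS members (3.12-fold, 2.72 to 3.60). Ifi27l2a was at 3201 and 976 CPM (3.28-fold, 2.84 to 3.81), and Isg15, a ubiquitin-like modifier, at 235 and 39.0 CPM. The higher Ifi27l2a was not particular to members, since microglia had 1012 and 266 CPM (3.80-fold, 3.51 to 4.12) and B cells 2112 and 571 CPM. Glycolysis and hypoxia genes were 10 higher and 0 lower of 12 (median 1.27). Mif, a cytokine grouped there as a hypoxia target, stood at 521 CPM in Igfbpl1 members and 78.05 CPM in PBS members (6.67-fold, 4.07 to 11.8), and Ldha, lactate dehydrogenase A, at 307 and 127 CPM. Vegfa, the vessel growth factor, had 94 UMIs in Igfbpl1 members and 0 in PBS members, at least 6.89-fold higher. Microglia had 6 UMIs of Vegfa in the Igfbpl1 library and 9 in the PBS library. Fth1, the ferritin heavy chain, was at 17776 and 7766 CPM (2.29-fold, 2.17 to 2.41).

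Inflammatory genes were mixed, with 4 higher and 1 lower of 16 (median -0.26, or 0.11 without ribosomal protein and mitochondrial genes). Il1b, the gene of interleukin-1 beta, was at 2378 CPM in Igfbpl1 members and 1117 CPM in PBS members (2.13-fold, 1.86 to 2.45). Microglia differed more in Il1b, at 536 CPM in the Igfbpl1 library and 97.0 CPM in the PBS library (5.53-fold, 4.87 to 6.30). Its ratio was 6.42 in Xist-only members (4.39 to 9.78) and 2.14 in Y-only members (1.57 to 2.89). Il1rn, the interleukin-1 receptor antagonist, was at 217 CPM in Igfbpl1 members and had 1 UMI in PBS members (44.5-fold, 7.89 to 1764). B cells of the Igfbpl1 library had Il1b at 1248 CPM and Il1rn at 116 CPM, and those of the PBS library 0 UMIs of each. These 2 differences were thus not particular to members, and the part of free RNA in them was not tested. Tnf stood at 92.3 CPM in Igfbpl1 members and 141 CPM in PBS members and was not called. Among 14 chemokine genes, 2 were higher and 5 lower (median -0.38). Ccl5, a chemokine for T cells, was at 1692 and 48.8 CPM (34.7-fold, 18.8 to 72.5), and Ccl12, a chemokine for monocytes, at 383 and 1620 CPM (0.237-fold, 0.203 to 0.276). In microglia Ccl5 stood at 452 and 206 CPM (2.19-fold, 1.99 to 2.41). B cells had Ccl5 at 516 CPM in the Igfbpl1 library and 4.88 CPM in the PBS library. Apoe-low class II cells of the Igfbpl1 library had it at 1567 CPM, near the level of the members. Ccl2 stood at 926 and 834 CPM in members and was not called, against 1726 and 425 CPM in microglia.

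Disease-associated microglia genes, a set named for microglia around lesions, had 4 higher and 3 lower of 14 (median 0.07). Spp1, osteopontin, was at 499 CPM in Igfbpl1 members (69 of 237 cells) and 82.9 CPM in PBS members (5 of 48 cells), a 6.02-fold ratio (3.72 to 10.4). Lgals3, galectin-3, was at 1065 and 97.6 CPM (10.9-fold, 7.03 to 17.9). B cells of the Igfbpl1 and PBS libraries had Lgals3 at 363 and 9.75 CPM, and Spp1 at 190 CPM and 0 UMIs. Apoe-low class II cells of the Igfbpl1 library had Lgals3 at 873 CPM and Spp1 at 24.3 CPM. A higher Lgals3 in the Igfbpl1 library was thus not particular to members. Trem2, a lipid-sensing receptor gene, stood at 656 and 580 CPM, a ratio of 1.13 whose interval held 1 (0.927 to 1.39). Transcription factor genes had 3 higher and 6 lower of 23 (median -0.17), but 6 higher and 5 lower of 24 when scaled by the median ratio (median 0.09). Cebpb, a factor of inflammatory myeloid cells, was at 1798 and 532 CPM (3.38-fold, 2.78 to 4.14), and Mef2c, a factor prominent in microglia, at 253 and 1063 CPM. Of 10 insulin-like growth factor pathway genes, 0 were higher and 3 lower (median -0.46): Rptor, Igfbp4 and Sesn1. Scaled by the median ratio, 1 was higher and 3 lower of 11 (median -0.26). Without ribosomal protein and mitochondrial genes 1 was higher and 3 lower of 13 (median -0.31). In Xist-only members 1 was higher and 1 lower of 9 (median 0.00). Igf1r itself stood at 21.5 CPM in Igfbpl1 members and 58.5 CPM in PBS members and was not called, and Igfbpl1 was listed for neither library.

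Macrophage markers had 7 lower and 0 higher of 20 (median -0.31, or -0.10 when scaled by the median ratio). Fc and scavenger receptors had 4 lower of 13 (median -0.29, or -0.08 when so scaled). Lysosome and protease genes had 3 lower of 21 (median -0.16, or 0.06 when so scaled). Over all genes measured 16.1% were lower (median -0.20), so the lysosome and protease list lay near the share of all genes. Chemokine receptor genes had 3 higher (Ccr2, Ccrl2 and Cxcr4) and 3 lower (Cx3cr1, Ccr1 and C5ar1) of 7 (median -0.10, or 0.10 when scaled by the median ratio). Heat shock genes, which cell isolation is known to induce, had 0 higher and 1 lower of 14 (median 0.15), the lower one being Bag3. Immediate early genes had 2 higher and 6 lower of 20 (median -0.40), a balance that turned with the scaling, to 4 higher and 3 lower of 21 by the median ratio (median -0.06) and 5 higher and 3 lower of 22 without ribosomal protein and mitochondrial genes (median 0.00). Jun stood at 1499 CPM in Igfbpl1 members and 3551 CPM in PBS members and Fos at 2089 and 2229 CPM. Beyond the lists, the genes with the lowest ratios included Bank1, a B cell adaptor gene with 1 UMI in Igfbpl1 members and 65 in PBS members, and Hpgd, which breaks down prostaglandins, at 36.5 and 800.0 CPM. Ly6a, the stem cell antigen Sca-1, had 604 UMIs in Igfbpl1 members (648 CPM) and 0 in PBS members, at least 44.3-fold higher. Apoe-low class II cells of the Igfbpl1 library had Ly6a at 622 CPM. B cells had it at 337 CPM in the Igfbpl1 library and 141 CPM in the PBS library.

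**Figure D4:**
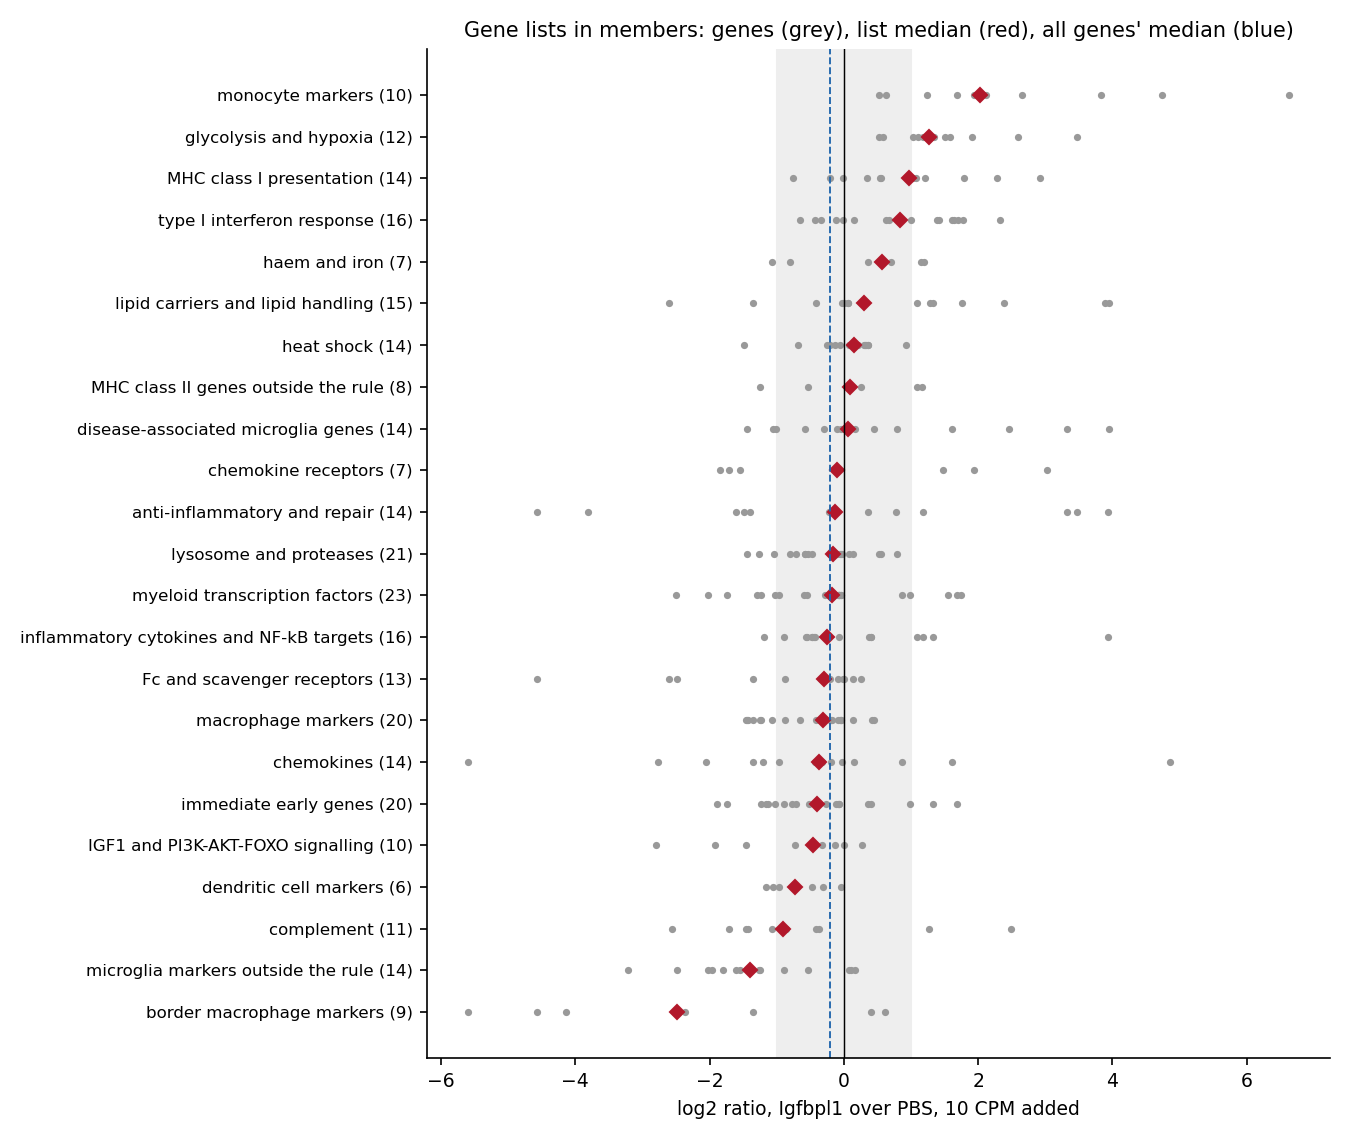
Log2 ratios (Igfbpl1 over PBS, after adding 10 CPM to each) of the members' genes in each list with at least 6 genes measured (number in brackets). Grey points are genes, red diamonds list medians, the dashed blue line the median of all genes (-0.20), and the shaded band a change of under 2-fold. Monocyte markers lie farthest to the right (2.03) and border macrophage markers farthest to the left (-2.48).

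The second comparison sets members beside the microglia of the same library. In the Igfbpl1 library 241 of 2944 genes (8.19%) were higher in members and 690 (23.4%) lower, and in the PBS library 167 of 3319 (5.03%) and 414 (12.5%). Ms4a7 was 72.2-fold higher in Igfbpl1 members (49.4 to 110) and 499.8-fold higher in PBS members (210 to 1558). Clec12a, an inhibitory lectin receptor gene, was at 275 CPM in Igfbpl1 members against 1.11 CPM in Igfbpl1 microglia, and at 185 CPM in PBS members against 2 UMIs in PBS microglia. Plbd1, a lysosomal phospholipase-like gene, was at 351 CPM in Igfbpl1 members against 5.85 CPM in microglia, and had 34 UMIs in PBS members against 0 in microglia. Ccr2 was at 366 CPM in Igfbpl1 members against 11.1 CPM in microglia, and had 18 UMIs in PBS members against 1 UMI in microglia. Plac8 was higher in members of the Igfbpl1 library, where microglia had 34.3 CPM, while PBS members had 0 and PBS microglia 6 UMIs. Genes known from microglia were lower in members of both libraries, among them Plxdc2, at 80.5 CPM in Igfbpl1 members against 2538 CPM in microglia and 507 CPM in PBS members against 3559 CPM. Nav3 stood at 67.6 CPM in Igfbpl1 members against 1933 CPM in microglia, and had 1 UMI in PBS members against 2097 CPM.

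The third comparison sets Igfbpl1 members beside the Apoe-low class II cells of that library, since the PBS library had 2 such cells. Of 2419 genes measured, 178 (7.36%) were higher in members and 90 (3.72%) lower. Macrophage markers were higher, 15 of 19 measured with 0 lower (median 2.32), and dendritic cell markers lower, 9 of 13 with 0 higher (median -1.15). Apoc2 stood at 861 CPM in members and 39.8 CPM in Apoe-low cells (21.6-fold, 17.0 to 27.9). Spp1 was at 499 and 24.3 CPM (20.5-fold, 15.04 to 28.6), and Selenop, a selenium carrier gene, at 398 and 42.0 CPM (9.48-fold, 7.39 to 12.3). C1qb was at 2894 and 395 CPM (7.32-fold, 6.74 to 7.96). On the lower side, S100a4, a calcium-binding protein gene of motile cells, was at 85.9 CPM in members and 1165 CPM in Apoe-low cells (0.0737-fold, 0.0582 to 0.0922). H2-Oa, which restrains peptide loading, was at 32.2 and 378 CPM, and Klrd1, the CD94 receptor gene of natural killer cells, at 73.0 and 552 CPM.

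Along Apoe itself the class II cells of the Igfbpl1 library changed stepwise in some genes and not in others. They were divided at 100, 200 and 400 Apoe UMIs per 10000, a division made after the data were seen, into 444 Apoe-low cells and 53, 81 and 103 members, with median depths of 3774, 3500, 3669 and 3370 UMIs. From the lowest to the highest Apoe band, Ms4a7 stood at 58.1, 274, 549 and 782 CPM. Trem2 stood at 70.2, 331, 633 and 908 CPM, C1qa at 327, 1432, 1808 and 3451 CPM, and Apoc2 at 39.8, 516, 792 and 1170.5 CPM. Each of these genes had its highest level where Apoe was highest. Lyz2 had another shape, at 1118 CPM in the Apoe-low cells and 7505, 7860 and 6840 CPM in the 3 bands of members. Monocyte markers summed to 7691, 5919, 4174 and 2838 CPM. Plac8 stood at 1944, 1804, 1041 and 337 CPM, and S100a6 at 1836, 646, 417 and 180 CPM. The sum, Plac8 and S100a6 were thus lowest where Apoe was highest. Ccr2 did not follow them, at 222, 387, 357 and 360 CPM. Ly6c2 was at 181 CPM in the Apoe-low cells and 340 CPM in all Igfbpl1 members. Of 13 monocyte markers measured in members against Apoe-low cells, 2 were higher and 4 lower (median -0.17), so the decline was not general to the list. Il1b was nearly level, at 2304, 2421, 2264 and 2455 CPM, and the border markers summed to 179, 811, 699 and 697 CPM. Because the Apoe band is a share of the cell's UMIs and Apoe alone took 38446 CPM of the members' UMIs, other genes' shares are bounded by it.

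**Figure D5:**
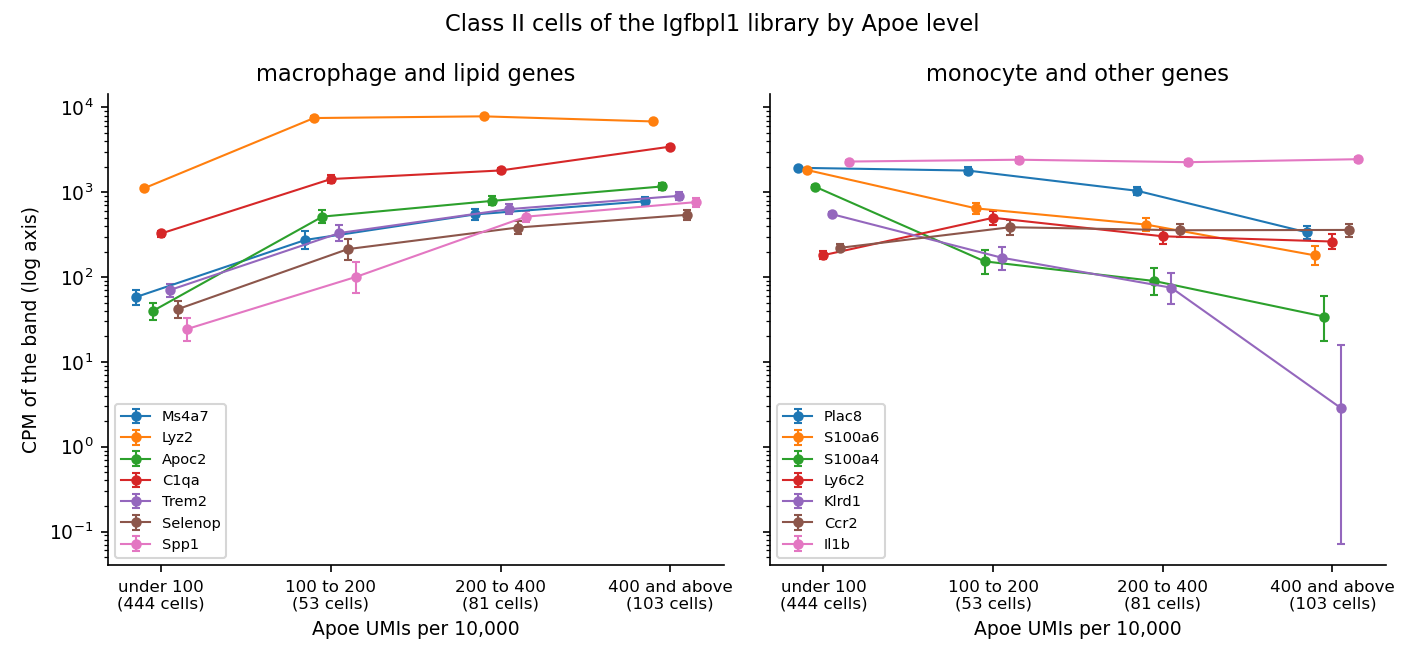
Levels in CPM (log axis) with exact 95% Poisson intervals in class II cells of the Igfbpl1 library, by bands of Apoe UMIs per 10000. The lowest band holds the 444 Apoe-low cells and the other bands the members. Ms4a7, C1qa, Trem2, Apoc2, Selenop and Spp1 climb from left to right, Plac8, S100a6, S100a4 and Klrd1 decline, and Il1b is nearly level. Lyz2, Ccr2 and Ly6c2, also drawn, were higher in all members together than in the Apoe-low cells.

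Across the 237 Igfbpl1 members, which share a library and range widely in depth, Spearman's correlation of Apoe with the monocyte sum was -0.53, and -0.40 after thinning to 1000 UMIs. With the C1q genes it was 0.37, and 0.34 after thinning. With the border sum it was 0.02, and with the class II sum -0.06. In the 48 PBS members, where 41 cells lay at 400 or more Apoe UMIs per 10000, the correlation with the monocyte sum was -0.21 and with the C1q genes 0.23 (0.08 after thinning). With Lyz2 it was 0.48 in PBS members (0.40 after thinning) and -0.04 in Igfbpl1 members. With Il1b it was -0.30 in PBS members (-0.16 after thinning) and -0.05 in Igfbpl1 members. These are descriptions of cells from 1 pool each.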

How the data were processed

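Single-cell RNA sequencing measured CD45-positive retinal cells of 1 Igfbpl1 and 1 PBS library, each a pool of 10 mice. The authors deposited raw UMI counts for each gene in each barcode. The submitters' processing notes name Cell Ranger 3.1 and mm10, and earlier filters are not given in the sources used here. Together the counts held 9463631 UMIs in the Igfbpl1 library and 3795008 in the PBS library, listing 17273 and 15579 genes, 15169 of them in both. A gene listed for 1 library has no ratio.

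Counts were summed over the members of each library and scaled to CPM of the class total. A gene was called at a log2 ratio of at least 1 in size, with 10 CPM added, and an exact 95% interval of the ratio without 1, among genes in both libraries with a mean of at least 50 CPM and at least 20 UMIs. The calling was tested on simulated counts. Ratios had nothing added, and floors were 3 UMIs over the class. Intervals cover counting error only. The class of microglia had at least 15 microglial UMIs per 10000 and a class II sum under 100, the B cells at least 3 B cell UMIs, and the T cells at least 2 UMIs of Cd3d, Cd3e and Cd3g. All differences were left untested, since each group had 1 library and cells are not replicates. Doublets were called with Scrublet in scanpy 1.11.5 (62 of 3330 and 6 of 1055 cells) and kept in.

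At most 12 genes per direction between libraries and 10 per direction between classes were considered by ratio (at least 50 UMIs), with up to 3 of highest expression and 2 of largest ratio per list and a fixed set of others, without clone-named, mitochondrial and ribosomal protein genes. The text names a part of these. Positions come from GENCODE M21. Alternatives covered the limits of the rule, depth, doublets, mitochondrial share, sex-linked sets, pseudocount, minimum level, scaling and cell weighting. The members, marker lists and gene lists were chosen with earlier results of these data known. The T cell background, Apoe bands, lists in Xist-only members and the border limit of 50 were added after the values were seen. Software was Python 3.11.15, pandas 2.3.3, numpy 2.4.6, scipy 1.17.1 and matplotlib 3.10.9.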

Additional observations from a re-analysis of the deposited data

How the results depend on the processing

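The members' share of the library was larger in the Igfbpl1 than in the PBS library by 1.26 to 4.47 percentage points under 9 of 10 alternatives. It was 4.47 points with a microglial limit of 5 per 10000. It reversed among Y-only cells, to -2.60 points (1.07% of 560 Igfbpl1 cells and 3.67% of 490 PBS cells), where the Igfbpl1 library had 6 members. The counts of genes higher and lower moved by over 1.5 times as follows: 102 and 77 in Y-only cells, 146 and 226 with 50 CPM added, 421 and 717 with no minimum level, 103 and 91 with a minimum of 200 CPM, and 186 lower after thinning to 1000 UMIs, where 168 were higher. Fewer genes were measured in Y-only cells (683), after thinning (1970) and at 200 CPM (618). Of 831 values of single genes over the alternatives, 709 stayed within the counting interval, 115 lay outside it and 7 were reversals. The settings that added 1 or 50 CPM or changed the minimum level could not move a value, since the ratio judged had nothing added. The mitochondrial limit removed no member. Each of these settings gave 49 values that stayed by construction, so they are no sign of stability. A reversal was counted only for a gene called in the main comparison. All 7 were log2 ratios in Y-only cells: Apoc1 (-1.81), Apoc2 (-0.39), Ifi27l2a (-0.33), Ccl5 (-3.46), Ly6i (-1.17), Il1rn (-1.17) and Ly6c2 (-2.25). The counting interval of each of these 7 ratios held 1, so none is told apart from no change. Some uncalled genes among the 115 also changed direction. Trem2 went from a ratio of 1.13 to 0.574 in Y-only cells, and Ccl2 from 1.11 to 0.750 in Xist-only cells. The cause was not tested. Depth limits genes with few PBS UMIs, since PBS members held 204998 UMIs in 48 cells. No paired analysis was possible because each group had 1 library.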

Other observations

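Some genes in members were listed for the Igfbpl1 library alone and so belong in no ratio. Ifitm1, an interferon-induced membrane gene, stood at 106 CPM (86.4 to 129) in 23 of 237 members, and Lyz1, a second lysozyme gene, at 84.8 CPM (67.1 to 106) in 15 members, 1 of which held 35.4% of its UMIs. The serotonin receptor gene Htr7 was at 44.0 CPM in 22 members, and Nr1h3, the oxysterol-sensing liver X receptor alpha, at 21.5 CPM in 17 members. Xcr1, a receptor of cross-presenting dendritic cells, was at 21.5 CPM in 7 members.

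The few members that stood against their library's majority resembled it in some genes and not in others. The 15 Igfbpl1 members with more border than monocyte UMIs had Apoc2 at 910 CPM (647 to 1244) and Ccl5 at 1586 CPM, against 857 and 1743 CPM in the 208 with more monocyte UMIs. Their Ifi27l2a was at 1213 CPM against 3301 CPM in those 208, Lgals3 at 443 against 1105 CPM, Ly6a at 187 against 685 CPM and Fth1 at 11686 against 18006 CPM. Mrc1 rested on 3 UMIs (70.0 CPM). The 11 PBS members with more monocyte than border UMIs had Apoc2 at 76.2 CPM from 3 UMIs, Ccl5 and Plac8 at 0 UMIs and C1qa at 6303 CPM. Their Il1b was at 2414 CPM (1953 to 2951), against 705 CPM in the 33 PBS members with more border UMIs and 2378 CPM in all Igfbpl1 members. Of those 11 cells 7 were Y-only and 2 Xist-only. The split was made after the values were seen and was not tested.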
